A study of Homo sapiens with 4 samples.

Results

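The 42 genes described here encode factors that carry an mRNA through translation: the eIF2B nucleotide exchange complex, the eIF3 scaffold, the eIF4 cap-binding proteins and helicases, the repressors that bind eIF4E, the poly(A)-binding proteins, eIF5A, eIF6, the elongation factors and the release factors. They were chosen by name from these families, with earlier results of these data known. Start codon selection factors such as EIF1 and EIF5 were left out of the list. All 42 had a row among the 37247 gene rows of the deposited table, and all 42 passed the filter on low values, which asked for 1 TPM or more in 2 or more of the 4 libraries and kept 12947 genes in all. TPM counts transcripts after allowing for their length, and its total is the same in every library.

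The cells were AMO1, an established human plasmacytoma line, labelled as wild type. One group received periplocin, a cardiac glycoside that blocks the sodium and potassium pump, at 0.2 mM (the unit as labelled, not checked here) for 6 h. The other received 0.10% DMSO, the vehicle, for 6 h. Each group had 2 libraries, both from this single line, and the series title names the inhibition of c-Myc by cardiac glycosides as the subject.

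Translation of most cellular mRNAs starts when eIF4E binds the cap, the scaffold eIF4G brings in the helicase eIF4A, and eIF3 joins this complex to the small ribosomal subunit. The initiator tRNA arrives with eIF2 bound to GTP, and eIF2B reloads eIF2 with GTP after each round, the step that is blocked when stress kinases phosphorylate eIF2. Plasma cells secrete large amounts of protein, and the genes of many of these factors are known targets of MYC.

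The libraries carried the plasma cell identity of their label. The 8 plasma cell markers read 27.7 to 7208 TPM across the libraries. Of these, 4 were called lower by limma, as were 18.9% of all tested genes. They were PRDM1 (log2 fold change -0.98), IRF4 (-0.60), XBP1 (-0.40) and MZB1 (-0.31), while SDC1, TNFRSF17, JCHAIN and CD38 did not pass. The sum of all 8 markers was 9974 and 10422 TPM with periplocin against 9815 and 10197 TPM with DMSO. Their part in the results was not tested. In addition, 14 of 19 markers of 5 other cell types were under 1 TPM in every library, the highest reading being 4.20 TPM for NKG7. CD3D, HBA1 and ALAS2 were listed at 0 throughout. The summed T and NK cell markers were 3.67 and 3.70 TPM with periplocin against 7.25 and 4.71 TPM with DMSO, and the highest sum of any of the other 4 cell types was 2.47 TPM, for fibroblast markers in DMSO replicate 1. Immunoglobulin rows took 11.3 and 11.1% of all TPM with periplocin and 9.94 and 10.04% with DMSO. Mitochondrially encoded rows took 5.07 and 5.75% with periplocin and 5.54 and 5.99% with DMSO. In these bulk samples fewer cells of a kind and less RNA per cell cannot be told apart.

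Of the 42 genes, 14 fell with periplocin (33.3%; 18.9% of all tested genes fell) and 2 rose (4.76%; 10.4% of all tested genes rose), by limma with Benjamini-Hochberg adjustment over the 12947 tested genes and a threshold of 0.05. The genes that fell were EIF2B1 and EIF2B3, 8 eIF3 subunits, EIF4G1, PABPC4, EEF1B2 and EEF2. Those that rose were EIF4G2 and EIF5A. The remaining 26 did not pass. In 28 of the 42 (66.7%) both periplocin libraries read below both DMSO libraries, a pattern seen in 43.4% of all tested genes, and in 4 (9.52%) both read above, against 25.4% of all tested genes. Most shifts were small: the log2 fold changes (periplocin over DMSO, on the log2(TPM + 1) scale) ran between -1.64 for EIF2B3 and 0.35 for EIF4G2, with a median of -0.22 beside -0.14 for all tested genes.

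The factors together made up 2.01 and 1.99% of all TPM with periplocin, against 2.19 and 2.20% with DMSO. A single gene, EEF1A1, supplied 35.4 and 35.9% of that sum with periplocin and 33.0 and 33.8% with DMSO.

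**Figure D1:**
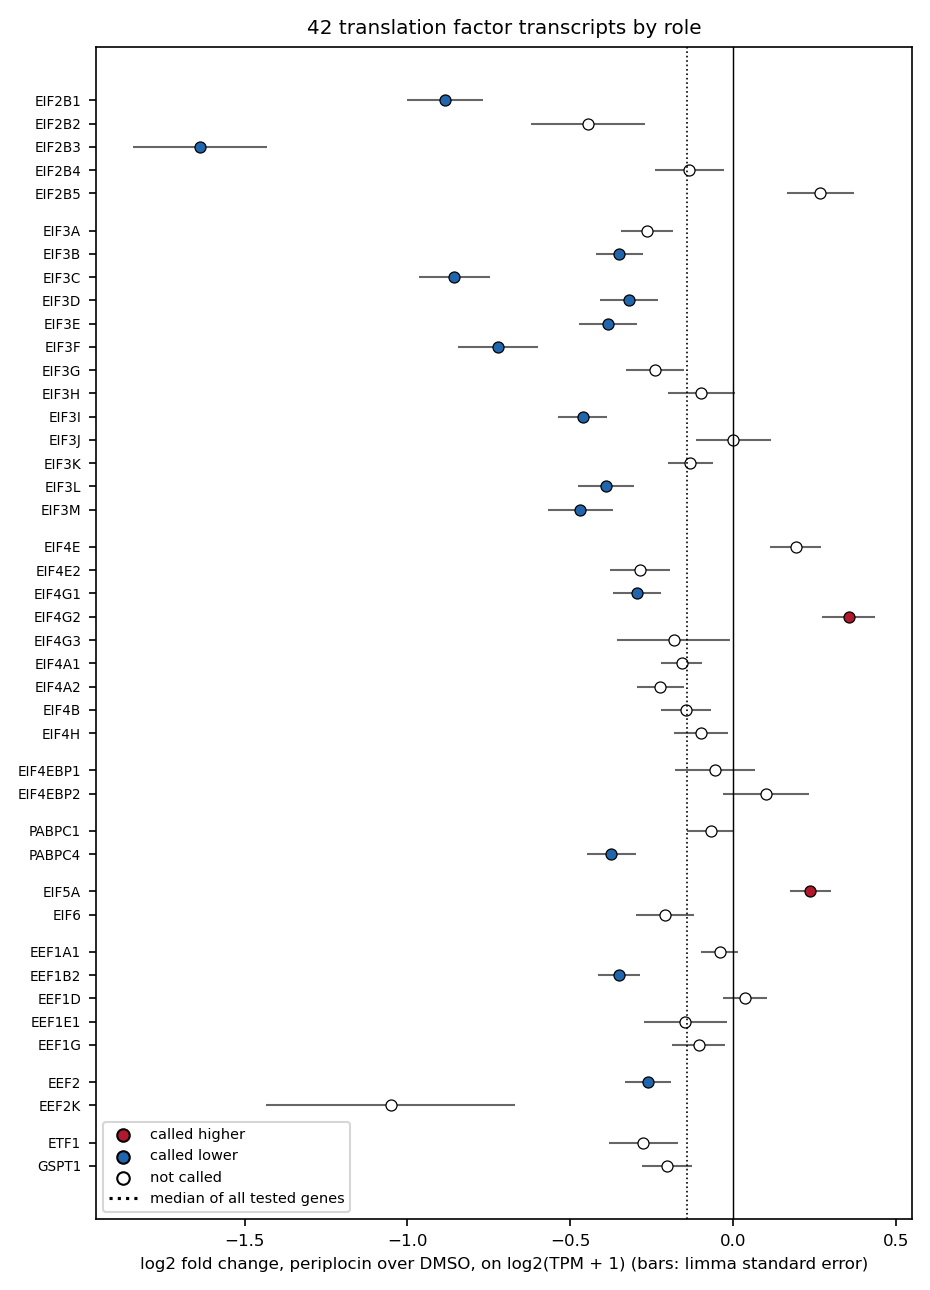
Log2 fold change (periplocin over DMSO, log2(TPM + 1) scale) of each of the 42 genes with its standard error, ordered by group. EIF2B3 lies farthest to the left at -1.64, and with the values as deposited only EIF4G2 (0.35) and EIF5A (0.24) were called higher.

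The size of the decrease depended on how the libraries were scaled. As deposited, the median of all tested genes lay at -0.14. After rescaling by median-of-ratios size factors it lay at -0.01 and that of the 42 genes at -0.07. With size factors 5 of the 42 fell (11.9%; 13.5% of all tested genes) and 4 rose (9.52%; 15.5% of all tested genes). The 5 were EIF2B1, EIF2B3, EIF3C, EIF3F and EIF3I, and the 4 were EIF4G2, EIF5A, EIF4E and EIF2B5. The fold changes of 10 of the 42 took the other sign, none of them among the 16 called genes. Of those 16 calls, 3 (EIF2B1, EIF2B3 and EIF3C) held under all 7 processing alternatives. Once low genes were kept in, 5 of the 42 fell (4.83% of the 21232 genes then tested) and 0 rose (2.89%), and 24 of the 42 had an unadjusted p under 0.05. Without the trend in limma's variance, 3 fell (14.9% of all tested genes) and 0 rose (6.77%), and 13 had an unadjusted p under 0.05. Without the immunoglobulin and mitochondrial rows 13 fell (17.7% of the genes then tested).

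The calls rested on few libraries. When either DMSO library was left out, limma called no gene of the 12947, although 17 of the 42 had an unadjusted p under 0.05 in each of these fits, against 26 with all 4 libraries. Without periplocin replicate 1, EIF2B1, EIF2B3, EIF3C, EIF3F and EEF1B2 were called lower and EIF4G2 higher, beside 8.82% lower and 4.03% higher of all tested genes. Without periplocin replicate 2, EIF2B1, EIF2B3, EIF3C, EIF3F, EIF3I and EIF3M were called lower and none higher, beside 8.32% lower and 3.69% higher of all tested genes. No label says whether libraries of the same group were grown as separate cultures, so p-values here measure the spread between these libraries, which may be technical.

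**Figure D2:**
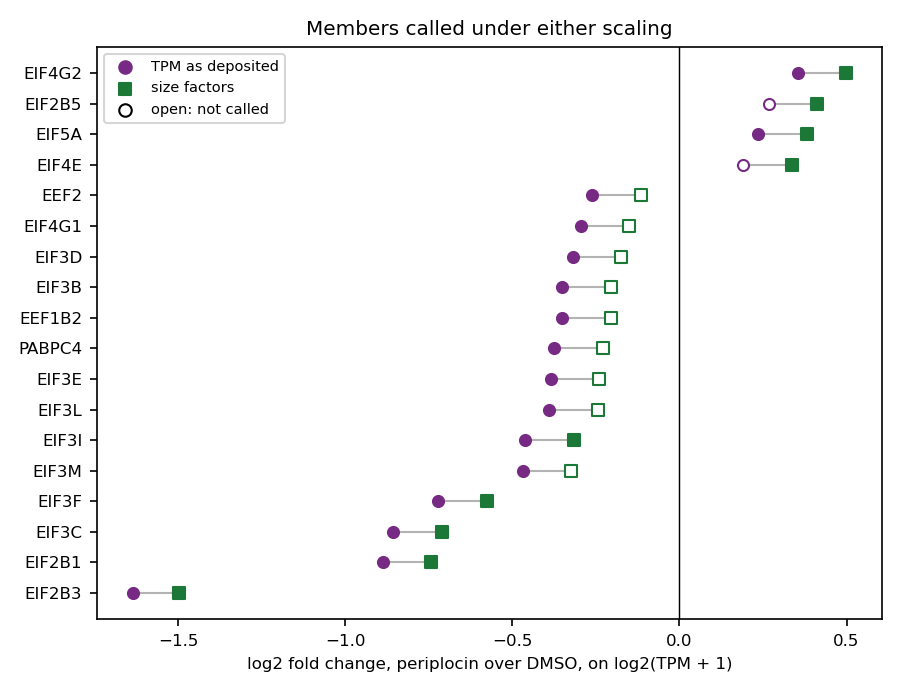
Log2 fold changes, as deposited and after median-of-ratios size factors, of those of the 42 genes that were called under either scaling. The genes shown move up together, and EIF2B3, EIF2B1, EIF3C, EIF3F and EIF3I remain called lower. The median over all 42 genes, shown or not, was -0.22 as deposited and -0.07 with size factors.

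Because MYC is known to bind CACGTG motifs, called E-boxes, near some of these genes, the promoters were searched for this motif. MYC itself read 278 and 282 TPM with periplocin against 578 and 631 TPM with DMSO (log2 fold change -1.11, limma adjusted p = 0.00218). RefSeq promoter windows (250 bases before and 50 after a start, GRCh38.p14) were at hand for 33 of the 42 genes, and a gene with several windows was counted once if any of them held the motif. CACGTG reads alike on both strands, so 1 search covers both. It occurred in 8 of the 33 (24.2%), against 8.78% of 27305 genes with a window and 13.1% of the 9288 tested genes with a window. The 8 were EIF4E and EIF4G1, with 2 motifs each, and EIF2B3, EIF3F, EIF3K, EIF4B, EIF4H and EEF2K. The 250 bases before the start are shown for both genes with 2 motifs and for the motif-bearing genes with the largest decreases that passed, EIF2B3 and EIF3F, with the motif in capitals, at chr4:98929134-98929383 (minus strand, EIF4E), chr3:184314356-184314605 (plus strand, EIF4G1), chr1:44986596-44986845 (minus strand, EIF2B3) and chr11:7987087-7987336 (plus strand, EIF3F).
EIF4E: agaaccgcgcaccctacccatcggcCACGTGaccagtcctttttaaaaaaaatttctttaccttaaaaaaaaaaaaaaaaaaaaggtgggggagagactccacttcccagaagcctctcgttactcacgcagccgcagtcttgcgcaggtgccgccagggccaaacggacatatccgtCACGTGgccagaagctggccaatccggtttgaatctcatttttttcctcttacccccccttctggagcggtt
EIF4G1: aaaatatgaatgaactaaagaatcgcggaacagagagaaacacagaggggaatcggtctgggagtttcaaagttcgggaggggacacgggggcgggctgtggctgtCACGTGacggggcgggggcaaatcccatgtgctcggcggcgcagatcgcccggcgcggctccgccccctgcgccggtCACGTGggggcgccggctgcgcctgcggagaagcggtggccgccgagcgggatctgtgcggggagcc
EIF2B3: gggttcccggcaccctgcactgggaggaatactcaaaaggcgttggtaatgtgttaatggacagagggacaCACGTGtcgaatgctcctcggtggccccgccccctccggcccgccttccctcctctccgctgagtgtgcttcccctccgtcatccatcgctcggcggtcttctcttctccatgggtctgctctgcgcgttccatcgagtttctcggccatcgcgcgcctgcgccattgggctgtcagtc
EIF3F: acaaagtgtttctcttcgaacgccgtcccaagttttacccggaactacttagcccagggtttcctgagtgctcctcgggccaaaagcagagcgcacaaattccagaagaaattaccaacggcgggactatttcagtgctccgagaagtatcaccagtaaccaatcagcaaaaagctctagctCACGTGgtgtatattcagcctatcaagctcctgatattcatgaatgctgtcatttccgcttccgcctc

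The median change of the 8 genes with the motif was close to that of the 25 without it. Whether MYC had a part in these changes was not tested. Of the 8 with CACGTG, 3 fell (EIF2B3, EIF3F and EIF4G1) and 5 did not pass, with a median log2 fold change of -0.22. The 25 without it had 8 lower, 2 higher and 15 not called, with a median of -0.21. Of all tested genes 18.9% fell and 10.4% rose. With size factors EIF2B3 and EIF3F were called lower with the motif, and EIF2B1, EIF3C and EIF3I without it (13.5% of all tested genes). EIF4E was then called higher with the motif, and EIF4G2, EIF5A and EIF2B5 without it (15.5% of all tested genes). EIF4E and EIF4G1, each with 2 motifs, had fold changes of opposite sign as deposited (0.19 and -0.30). Among all tested genes with a window the medians were -0.12 with the motif and -0.14 without it.

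A second feature was read at the start itself. Many mRNAs of the translation machinery begin with a C followed by a run of pyrimidines, a signal through which mTORC1 controls their translation. With the RefSeq start taken as it stands, a C and 4 further pyrimidines opened the transcript in 9 of the 33 genes (27.3%), against 5.14% of all genes with a window and 7.56% of the tested ones. They were EEF1A1, EEF1B2, EEF2, EIF3D, EIF3F, EIF3K, EIF3M, EIF4A2 and EIF4B. EEF1B2 had such a start in some but not all of its windows. Of these 9, 5 fell (EEF1B2, EEF2, EIF3D, EIF3F and EIF3M), with a median log2 fold change of -0.26. Of the other 24, 6 fell and 2 rose, with a median of -0.19. Over all tested genes 18.9% fell and 10.4% rose. With size factors only EIF3F of the 9 was called lower, and of the other 24 EIF2B1, EIF2B3, EIF3C and EIF3I (13.5% of all tested genes). Over all tested genes with a window the median was -0.13 with such a start and -0.13 without.

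Of the 5 eIF2B subunits 2 fell, EIF2B3 and EIF2B1 (40.0%; 18.9% of all tested genes), and the other 3 did not pass. Both calls held with size factors, where 13.5% of all tested genes fell. EIF2B3 (chromosome 1, 44850522 to 44986722 on GRCh38, minus strand) encodes the gamma subunit, which forms the catalytic part of the complex together with epsilon. It read 8.70 and 13.2 TPM in periplocin cells and 34.6 and 36.4 TPM in DMSO cells. Both periplocin libraries lay far below both DMSO libraries, and the means were 11.0 ± 3.19 TPM with periplocin and 35.5 ± 1.26 TPM with DMSO (SD, n = 2 each). The log2 fold change was -1.64 (standard error 0.21, limma adjusted p = 0.00551), the largest decrease among the 42 genes. It was -1.50 with size factors, and -1.36 without periplocin replicate 1 against -1.91 without periplocin replicate 2.

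EIF2B1 (chromosome 12, 123620406 to 123633766, minus strand) encodes the alpha subunit, which belongs to the regulatory part that senses phosphorylated eIF2. Its levels were 27.95 and 25.3 TPM with periplocin and 48.4 and 51.7 TPM with DMSO. The groups did not overlap, with means of 26.6 ± 1.84 TPM with periplocin and 50.1 ± 2.32 TPM with DMSO (SD, n = 2 each). Its log2 fold change was -0.89 (standard error 0.12, limma adjusted p = 0.00590). EIF2B1 overlaps GTF2H3, a gene on the opposite strand that itself fell, at 9.37 and 8.49 TPM with periplocin against 22.2 and 31.7 TPM with DMSO (log2 fold change -1.47, limma adjusted p = 0.00665). It also overlaps DDX55 on that strand, which stood at 46.1 and 45.3 TPM with periplocin against 42.6 and 36.0 TPM with DMSO and did not pass (0.22, limma adjusted p = 0.224). The sources used here do not say whether strand was used in quantification, so reads of these genes could have been exchanged, and the part of this in the EIF2B1 value was not tested.

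Among the remaining subunits, EIF2B5, the catalytic epsilon subunit, stood at 88.9 and 85.4 TPM in periplocin cells and 77.1 and 67.7 TPM in DMSO cells, with the periplocin libraries the higher ones (log2 fold change 0.27, limma adjusted p = 0.0998). With size factors it was called higher (0.41, limma adjusted p = 0.0358). EIF2B2, the regulatory beta subunit, gave 22.5 and 27.8 TPM with periplocin against 39.2 and 30.3 TPM with DMSO, a log2 fold change of -0.45 that did not pass (limma adjusted p = 0.105). EIF2B4, the delta subunit, stood at 35.7 and 36.1 TPM with periplocin and 38.7 and 40.4 TPM with DMSO (-0.13, limma adjusted p = 0.372).

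The summed TPM of the 5 subunits was 183.8 and 187.8 with periplocin and 238 and 226 with DMSO, and its make-up also differed. EIF2B3 supplied 5.89% of the sum on average in periplocin cells and 15.3% in DMSO cells, while EIF2B5 supplied 46.9% in periplocin cells and 31.1% in DMSO cells (n = 2 each). The most abundant subunit was 10.2 and 6.46 times the least abundant one in the periplocin libraries, against 2.23 times in each DMSO library. EIF2B5 was the highest subunit in all 4 libraries. The lowest was EIF2B3 in both periplocin libraries and in DMSO replicate 1, and EIF2B2 in DMSO replicate 2.

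**Figure D3:**
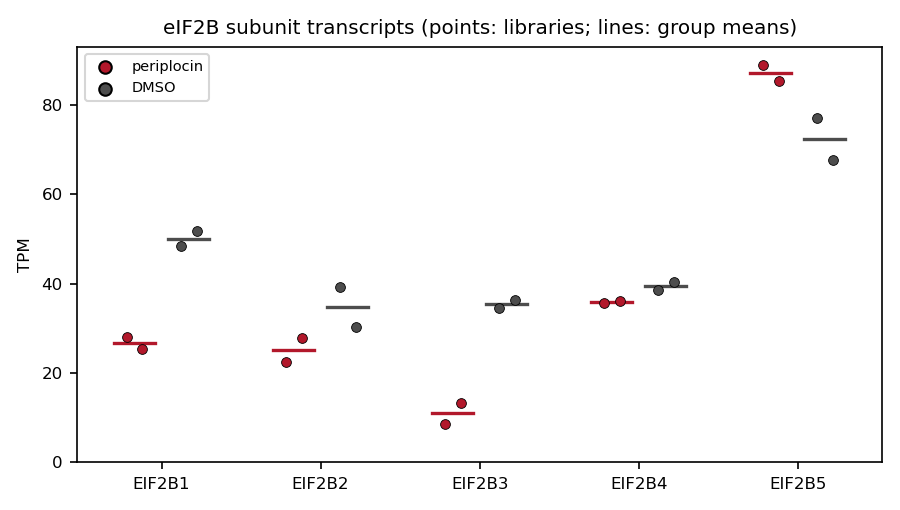
TPM of each eIF2B subunit in each library, periplocin left of DMSO, with the group means. EIF2B3 and EIF2B1 sit lower in both periplocin libraries, while the EIF2B5 points of periplocin (88.9 and 85.4 TPM) lie above those of DMSO (77.1 and 67.7 TPM).

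All 13 subunits of eIF3, the largest initiation factor, had a fold change at or below 0 as deposited (EIF3H, EIF3J and EIF3K were above 0 with size factors), and 8 of them fell (61.5%; 18.9% of all tested genes) and none rose. With size factors 3 fell (23.1%; 13.5% of all tested genes). In 11 of the 13 (84.6%, against 43.4% of all tested genes) both periplocin libraries read below both DMSO libraries. The summed TPM of the complex was 2958.5 and 2959.1 with periplocin against 3880.4 and 3890.8 with DMSO. The sums of the libraries of a group were close to each other, while single subunits varied more. These sums leave out EIF3CL, a near-identical copy of EIF3C described below. It read 86.6 and 88.4 TPM with periplocin but 53.5 and 115 TPM with DMSO.

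EIF3C, a subunit of the structural core, gave 159 and 145 TPM in periplocin cells and 302 and 252 TPM in DMSO cells. Both periplocin libraries lay well below both DMSO libraries, and the log2 fold change of -0.86 (standard error 0.11, limma adjusted p = 0.00568) was the largest within eIF3 for the row as deposited, before its near-identical copy is added. EIF3F, a core subunit with a fold typical of metalloproteases, read 475.5 and 377 TPM with periplocin and 735 and 665 TPM with DMSO. Its periplocin libraries differed widely from each other, yet both remained below DMSO (log2 fold change -0.72, standard error 0.12, limma adjusted p = 0.0107). EIF3I, a beta-propeller subunit that sits beside EIF3B and EIF3G, read 131 and 134 TPM with periplocin and 181 and 185 TPM with DMSO. The replicates of each group were nearly equal, and the log2 fold change was -0.46 (standard error 0.08, limma adjusted p = 0.00973).

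Another 5 subunits fell by smaller amounts, and none of these calls held with size factors. EIF3M, a core subunit, read 218.5 and 261 TPM with periplocin against 326 and 337 TPM with DMSO (log2 fold change -0.47, limma adjusted p = 0.0207, and 0.0546 with size factors). EIF3E, a core subunit that touches eIF4G, stood at 198 and 219 TPM with periplocin and 260.3 and 285 TPM with DMSO (-0.39, limma adjusted p = 0.0248, and 0.0821 with size factors). EIF3L, which forms a pair with EIF3K at the edge of the core, had 259 and 252 TPM with periplocin and 315 and 358 TPM with DMSO (-0.39, limma adjusted p = 0.0223, and 0.0742 with size factors). In each of these genes the groups stayed apart. EIF3B, the scaffold of the peripheral module, gave 289.8 and 271 TPM with periplocin and 362 and 353 TPM with DMSO (-0.35, limma adjusted p = 0.0186, and 0.0914 with size factors). EIF3D, a subunit able to bind the cap of some mRNAs, had 169 and 187 TPM with periplocin against 213 and 232 TPM with DMSO (-0.32, limma adjusted p = 0.0434, and 0.175 with size factors). Both were again lower in each periplocin library than in either DMSO library.

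The other 5 subunits did not pass. EIF3A, the largest subunit of the core, had a log2 fold change of -0.27 (limma adjusted p = 0.0527), EIF3G, an RNA-binding subunit, of -0.24 (0.0931) and EIF3K of -0.13 (0.198), each with groups that did not overlap. EIF3H, a core subunit, read 163 and 190.4 TPM with periplocin and 181 and 196 TPM with DMSO, and its groups overlapped (-0.10, limma adjusted p = 0.497). EIF3J, a loosely attached subunit near the decoding site, had 103 and 117 TPM with periplocin and 102 and 119 TPM with DMSO, which also overlapped (0.00, limma adjusted p = 0.998). The structural octamer (a, c, e, f, h, k, l and m) had 5 of 8 subunits lower (62.5%) with a median log2 fold change of -0.39. The other subunits (b, d, g, i and j) had 3 of 5 lower (60.0%) with a median of -0.32, where 18.9% of all tested genes fell. With size factors 2 of 8 and 1 of 5 were lower, where 13.5% of all tested genes fell. The difference between these modules was not tested. Within the complex, with EIF3CL left out, EIF3F took 14.4% of the summed TPM in periplocin cells and 18.0% in DMSO cells. EIF3K took 15.8% in periplocin cells and 13.2% in DMSO cells.

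**Figure D4:**
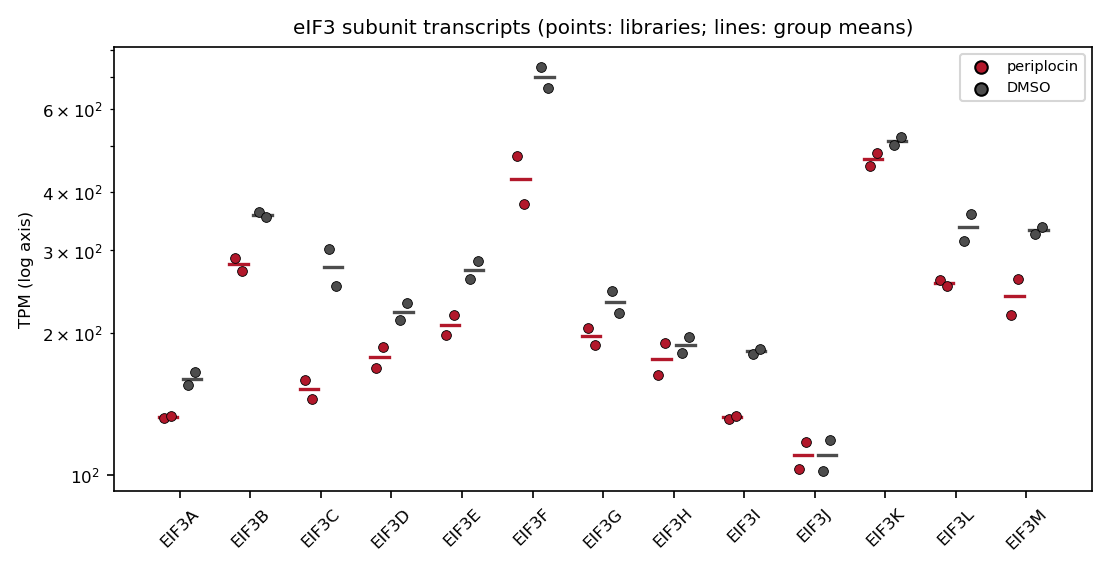
TPM of the 13 eIF3 subunits in each library, periplocin left of DMSO, with the group means. EIF3F and EIF3C show the widest gaps between group means, and EIF3J and EIF3H overlap.

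The EIF3C value needs its copy beside it. EIF3CL is a near-identical gene, and 79.4% of the 31-base words of EIF3C transcripts in GENCODE 29 also occurred in EIF3CL. The EIF3CL row read 86.6 and 88.4 TPM with periplocin against 53.5 and 115 TPM with DMSO, so that its DMSO libraries lay on either side of the periplocin ones (log2 fold change 0.15, limma adjusted p = 0.754). The share of the pair given to EIF3CL was 35.3 and 37.8% with periplocin but 15.1 and 31.4% with DMSO. The sum of the pair was steady within groups, at 245.5 and 233.5 TPM with periplocin and 355.5 and 367 TPM with DMSO. The means of the sum were 239.5 ± 8.46 TPM in periplocin cells and 361 ± 8.21 TPM in DMSO cells (SD, n = 2 each). Its log2 fold change was -0.59 (standard error 0.07, limma adjusted p = 0.00512), so the call held for the sum, at a smaller size than for EIF3C alone and than for EIF3F (-0.72).

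**Figure D5:**
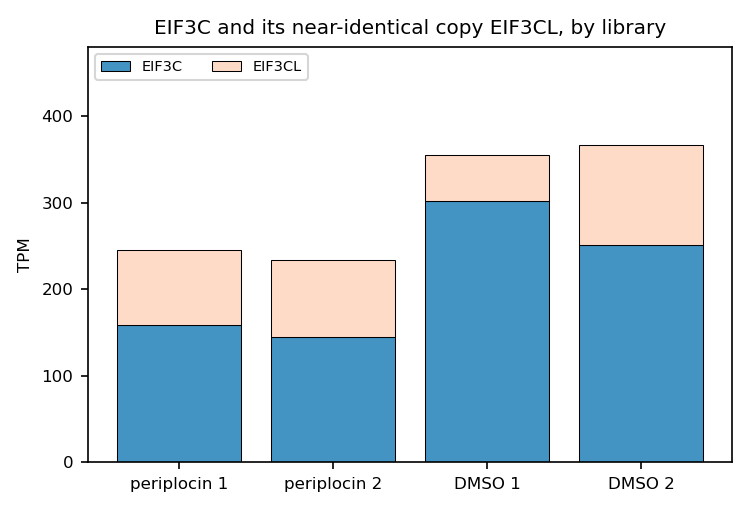
TPM given to EIF3C and to its near-identical copy EIF3CL in each library, periplocin left of DMSO. The split between the genes varies, most of all between the DMSO libraries, while the sum is 245.5 and 233.5 TPM with periplocin and 355.5 and 367 TPM with DMSO.

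Among the 9 genes of the eIF4 group, 1 rose (11.1%, against 10.4% of all tested genes) and 1 fell (11.1%, against 18.9%). Both belong to the eIF4G scaffold family. EIF4G2 (also called DAP5) lacks the eIF4E-binding part of eIF4G and supports initiation on selected mRNAs. It read 419 and 470.2 TPM in periplocin cells and 349.7 and 344 TPM in DMSO cells, with no overlap. The log2 fold change was 0.35 (standard error 0.08, limma adjusted p = 0.0241), and 0.50 with size factors (limma adjusted p = 0.00950). EIF4G1, the main scaffold of cap-dependent initiation and the other gene with 2 CACGTG motifs, gave 191 and 185 TPM with periplocin against 236 and 226 TPM with DMSO. Both periplocin libraries were lower (log2 fold change -0.30, standard error 0.07, limma adjusted p = 0.0316), but the call was lost with size factors (-0.15, limma adjusted p = 0.191). EIF4G3, a close relative of EIF4G1, was far less abundant at 17.9 and 23.2 TPM with periplocin and 21.4 and 25.2 TPM with DMSO, and its groups overlapped (-0.18, limma adjusted p = 0.458).

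EIF4E, the cap-binding protein itself and one of the genes with 2 CACGTG motifs, read 158.5 and 164 TPM in periplocin cells and 138 and 145 TPM in DMSO cells. Both periplocin libraries were the higher ones, but the log2 fold change of 0.19 did not pass as deposited (limma adjusted p = 0.118). With size factors EIF4E was called higher (0.34, limma adjusted p = 0.0244). EIF4E2, a cap-binding relative that represses the mRNAs it binds, gave 63.7 and 63.9 TPM with periplocin against 80.4 and 75.7 TPM with DMSO, groups that did not overlap (-0.29, limma adjusted p = 0.0625). The helicase EIF4A1 read 726 and 759.6 TPM with periplocin and 842 and 816 TPM with DMSO, and its relative EIF4A2 read 188 and 194 TPM with periplocin and 224 and 223 TPM with DMSO. Neither passed (-0.16, limma adjusted p = 0.112, and -0.22, limma adjusted p = 0.0625), although in both the groups stood apart. EIF4B and EIF4H, which stimulate the helicase, did not pass either (-0.15 and -0.10).

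The ratios between paralogues put these levels side by side within a library. The log2 ratio of EIF4E2 to EIF4E was -1.30 and -1.35 in periplocin libraries and -0.77 and -0.93 in DMSO libraries, a difference of -0.48. The ratio of PABPC4 to PABPC1 was -2.03 and -2.06 with periplocin and -1.74 and -1.75 with DMSO, a difference of -0.30, and that of EIF4A2 to EIF4A1 was -1.95 and -1.96 with periplocin and -1.91 and -1.87 with DMSO, a difference of -0.07. In these 3 pairs the groups did not overlap, and the exact two-sided permutation test gave p = 0.333 each, the smallest value that 2 against 2 libraries allow (0.556 after adjustment over the 5 pairs compared). The ratios of EIF4G3 to EIF4G1 and of EIF4EBP2 to EIF4EBP1 overlapped between groups, with differences of 0.11 and 0.16 (exact permutation p = 0.667 each, and 0.667 after adjustment).

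Neither gene for a repressor that binds eIF4E passed. EIF4EBP1, which mTORC1 inactivates by phosphorylation, stood at 123 and 105 TPM in periplocin cells and 129 and 108 TPM in DMSO cells (log2 fold change -0.06, limma adjusted p = 0.757). EIF4EBP2 read 28.5 and 32.9 TPM with periplocin and 27.3 and 29.7 TPM with DMSO (0.10, limma adjusted p = 0.595). In both genes the groups overlapped. The poly(A)-binding proteins join the tail of the mRNA to eIF4G. PABPC1, the more abundant, had 883 and 945 TPM with periplocin and 925 and 993 TPM with DMSO, which overlapped (-0.07, limma adjusted p = 0.494). PABPC4 fell, with 215 and 225 TPM in periplocin cells against 277 and 294 TPM in DMSO cells (-0.37, standard error 0.08, limma adjusted p = 0.0173), a call lost with size factors (limma adjusted p = 0.0617).

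EIF5A and EIF6 act at the ribosome itself. EIF5A (chromosome 17, 7306999 to 7312463, plus strand) carries the amino acid hypusine and relieves ribosomes that stall on poor substrates. It rose, at 1071.5 and 1117 TPM in periplocin cells and 912 and 946 TPM in DMSO cells, with no overlap (log2 fold change 0.24, standard error 0.06, limma adjusted p = 0.0376). With size factors the change was 0.38 (limma adjusted p = 0.00995). EIF6, which keeps the large ribosomal subunit from joining too early, read 129.7 and 123 TPM with periplocin and 139 and 153 TPM with DMSO and did not pass (-0.21, limma adjusted p = 0.125).

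Of the 5 genes of the eEF1 group, EEF1B2 fell (20.0%, against 18.9% of all tested genes) and the other 4 did not pass. EEF1A1, which carries aminoacyl-tRNA to the ribosome and was the most abundant of the 42 genes, stood at 7102 and 7152 TPM in periplocin cells and 7233 and 7442 TPM in DMSO cells (log2 fold change -0.04, limma adjusted p = 0.603). EEF1B2, a subunit that exchanges the nucleotide on eEF1A, gave 953 and 896 TPM with periplocin and 1182 and 1176 TPM with DMSO. Its groups were well apart (-0.35, standard error 0.06, limma adjusted p = 0.0130), but with size factors the adjusted p was 0.0681. EEF1G, the structural subunit, read 1931 and 1721 TPM with periplocin and 2040.1 and 1888 TPM with DMSO, which overlapped (-0.11, limma adjusted p = 0.353). EEF1D, an exchange subunit, and EEF1E1, a subunit of the tRNA synthetase assembly, did not pass and had overlapping groups (0.04 and -0.15).

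EEF2, the translocase that moves the ribosome along the mRNA, had 1475 and 1336 TPM in periplocin cells and 1697 and 1668 TPM in DMSO cells. It fell (log2 fold change -0.26, standard error 0.07, limma adjusted p = 0.0394), and the call was lost with size factors (-0.11, limma adjusted p = 0.297). EEF2K, the calcium-dependent kinase that inhibits eEF2, was the scarcest of the 42 genes. It read 2.03 and 0.634 TPM with periplocin and 2.96 and 4.37 TPM with DMSO, and despite a log2 fold change of -1.05 it did not pass (standard error 0.38, limma adjusted p = 0.0864). Of the release factors, ETF1, which recognises stop codons, read 99.8 and 98.9 TPM with periplocin and 111 and 131 TPM with DMSO. Its partner GTPase GSPT1 read 154 and 152 TPM with periplocin and 172 and 181 TPM with DMSO. In both the periplocin libraries were the lower ones and neither passed (-0.28, limma adjusted p = 0.0976, and -0.20, limma adjusted p = 0.0949).

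Of the genes around these factors, 55 in 5 lists were read in the same fit. Of these, 13 rose (23.6%, against 10.4% of all tested genes) and 11 fell (20.0%, against 18.9%). The lists were drawn up with earlier results of these data known, so their shares are no independent comparison with all tested genes. Among the 14 genes of start codon selection and the ternary complex 3 rose (21.4%; 10.4% of all tested genes) and 5 fell (35.7%; 18.9% of all tested genes). EIF5, which triggers GTP hydrolysis on eIF2, read 65.7 and 63.1 TPM with periplocin against 269.5 and 285 TPM with DMSO (log2 fold change -2.09, limma adjusted p = 0.000911). EIF1B, a relative of the start codon factor EIF1, read 86.0 and 82.6 TPM with periplocin against 31.2 and 29.8 TPM with DMSO (1.44, limma adjusted p = 0.00243), and EIF1 itself rose by 1.54 on the log2 scale. EIF2D, an alternative carrier of the initiator tRNA, fell by 0.83 on the log2 scale (limma adjusted p = 0.0248), a call lost without periplocin replicate 1. The remaining calls, named after their values were seen, were the eIF2 subunits EIF2S2 (-0.76) and EIF2S3 (-0.59) and BZW2 (-0.58) among the lower ones and BZW1 (0.36) among the higher ones, where BZW1 and BZW2 encode proteins that mimic eIF5. The calls of EIF2S2 and BZW2 were lost without periplocin replicate 1 (log2 fold changes -0.64 and -0.49). That of BZW1 was lost without periplocin replicate 2 (0.28). With size factors the list again had 3 higher and 5 lower (15.5% and 13.5% of all tested genes).

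Of the 8 eIF2 kinase and phosphatase genes, 2 rose (25.0%; 10.4% of all tested genes) and 3 fell (37.5%; 18.9% of all tested genes). PPP1R15A, the stress-induced subunit that directs a phosphatase to eIF2, gave 149 and 140.3 TPM in periplocin cells and 54.0 and 46.4 TPM in DMSO cells (log2 fold change 1.51, limma adjusted p = 0.00245). PPP1R15B, its constitutive relative, rose by 1.00 on the log2 scale. Both libraries of periplocin lay above both of DMSO for each gene. IMPACT, an inhibitor of the kinase GCN2, read 0.666 and 1.23 TPM with periplocin and 6.60 and 4.56 TPM with DMSO (-1.75, limma adjusted p = 0.0113), and the call was lost without periplocin replicate 1. EIF2AK2, the kinase PKR that senses double-stranded RNA, fell by 1.04 on the log2 scale. EIF2AK3, the kinase PERK of the endoplasmic reticulum, named after its value was seen, also fell (-0.53, limma adjusted p = 0.0416), but not with size factors.

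A list of 17 genes held kinases, binding proteins, helicases and relatives around eIF4E, eIF4A and eEF2. Of these, 6 rose (35.3%, against 10.4% of all tested genes) and 1 fell (5.88%, against 18.9%). PDCD4, a protein that sequesters eIF4A, had 137 and 147 TPM with periplocin against 55.5 and 46.5 TPM with DMSO (log2 fold change 1.46, limma adjusted p = 0.00304). PAIP2, a repressor of poly(A)-binding protein, had 146 and 165 TPM with periplocin and 74.1 and 83.1 TPM with DMSO (0.98, limma adjusted p = 0.00421). Neither gene's groups overlapped. DDX3X, a helicase for structured leaders, rose by 0.85 on the log2 scale. GIGYF2, a partner of EIF4E2 in repression, rose by 0.53, a call lost when either periplocin library was left out. Both kinases of eIF4E, named after their values were seen, were called, in opposite directions. MKNK2 rose (0.51, limma adjusted p = 0.0242), a call lost without periplocin replicate 1, and MKNK1 fell (-0.52, limma adjusted p = 0.0425), a call lost when either periplocin library was left out. RPS6KB1, the kinase S6K1 of the mTORC1 pathway, likewise named after its value was seen, rose by 0.48, a call also lost when either periplocin library was left out. With size factors the list had 6 higher and 0 lower (15.5% and 13.5% of all tested genes), without MKNK1. MKNK1 overlaps MOB3C on the same strand, which read 10.5 and 7.57 TPM with periplocin and 4.89 and 4.96 TPM with DMSO. Other called companion genes also overlapped another gene row, and the part of such overlaps in their values was not tested.

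The enzymes that modify EIF5A and EEF2 gave 1 higher and 1 lower of 8 (12.5% each; 10.4% and 18.9% of all tested genes). DPH5, a methyltransferase of the diphthamide pathway that modifies EEF2, read 8.14 and 6.47 TPM with periplocin and 22.7 and 19.5 TPM with DMSO (log2 fold change -1.42, limma adjusted p = 0.00582). DOHH, which completes hypusine on EIF5A, read 44.98 and 38.0 TPM with periplocin and 26.98 and 24.7 TPM with DMSO (0.66, limma adjusted p = 0.0178), and its call was lost without periplocin replicate 1. The 8 recycling and rescue genes also gave 1 higher and 1 lower (12.5% each). HBS1L rose (0.60), a call lost without periplocin replicate 2, and its partner PELO fell (-0.73), a call lost with size factors (limma adjusted p = 0.0562) and without either periplocin library. With size factors this list had 3 higher and 0 lower (15.5% and 13.5% of all tested genes). Of the 24 calls in the 5 lists, 12 held once low genes were kept in, and those of EIF2D, EIF2S2, BZW1, IMPACT, EIF2AK3, GIGYF2, MKNK1, DOHH, PELO and HBS1L were among the calls lost.

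Shared sequence touched some of these values. In 17 of the 42 genes over 10% of the 31-base words also occurred in other gene rows, and the median over the 42 was 4.74%. EEF1G shared 98.0% of its words with the readthrough row AP002990.1, which held 8.75 and 11.9 TPM with periplocin and 13.03 and 12.8 TPM with DMSO, far below EEF1G itself. EIF4A1 shared 51.1% of its words with the readthrough SENP3-EIF4A1, which read at most 1.17 TPM. Adding all 149 pseudogene and copy rows to their 24 parent genes changed none of the calls. In 19 of the 42 genes the gene body overlapped another row of at least 1 TPM, and the part of such overlaps in the values was not tested.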

How the data were processed

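RNA from 4 AMO1 libraries was sequenced as paired ends, per the labels' protocols. The authors deposited 1 table of TPM values, which correct for transcript length and sum alike in every library. The submitters' processing notes list GRCh38 and DESeq2 but not what each served for. Which aligner, quantifier, annotation and strand setting made the values was not given in the sources used here. TPM keeps no read depth, so no counting interval could be given. Columns headed PP were taken as the periplocin libraries. Identifiers were matched to current symbols (34436 of 37247 rows) and to GENCODE 29 positions (34620 rows).

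From these values, log2(TPM + 1) was fitted with limma-trend (limma 3.58.1, R 4.3.3) on genes with TPM of at least 1 in at least 2 libraries. The test was two-sided with Benjamini-Hochberg adjustment over 12947 genes and a threshold of 0.05 (2 residual and 4.01 prior degrees of freedom). On this scale changes of low genes appear smaller than they are. Paralogue ratios used an exact two-sided permutation test in Python 3.11.15 with scipy 1.17.1. Promoter windows came from RefSeq on GRCh38.p14.

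The 42 genes and the 5 companion lists were chosen with earlier results of these data known. Called genes among the 42 and paralogue partners are given in every library. Other genes are given by library values, fold change, range or count. Of each companion list up to 4 called genes with the largest change were named by rule, and further called genes were named after their values were seen. Alternatives were a pseudocount of 0.1, no filter on low values, size factors, median centring, leaving out immunoglobulin and mitochondrial rows, no trend, adding copy rows, a replicate block and leaving out each library.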

Additional observations from a re-analysis of the deposited data

How the results depend on the processing

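As reported, 2 of the 42 genes were higher and 14 lower with periplocin by limma. With median-of-ratios size factors 4 were higher and 5 lower, and median centring also gave 4 and 5. With no filter on low values 0 were higher and 5 lower, and with no trend 0 and 3. These settings moved the calls over all genes too, to 2012 higher and 1745 lower with size factors, 2117 and 1553 with median centring, 613 and 1026 with no filter and 876 and 1932 with no trend, against 1352 and 2443 as reported. Leaving out each library in turn gave 0 to 1 higher and 0 to 6 lower, and no gene of any kind was called without either DMSO library. A pseudocount of 0.1 and added copy rows kept all calls, and leaving out immunoglobulin and mitochondrial rows left 13 lower, without EIF3D. No call of the 42 genes changed sign. The paralogue differences ranged over these left-out libraries between -0.0882 and 0.31 for EIF4G3 to EIF4G1 and between -0.0543 and 0.37 for EIF4EBP2 to EIF4EBP1, so both took either sign.

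Replicate numbers were the same in both groups, and no label says whether same-numbered libraries were paired. The correlation between same-numbered deviations over 12947 genes was 0.0324. With only 2 pairs this value cannot decide whether such a pairing existed. With a replicate block 3 of the 42 genes were higher and 18 lower, beside 13% higher and 22.2% lower of all tested genes. With 2 libraries per group and no depth given, small changes near the threshold could not be resolved.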

Other observations

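The factors that serve the ribosomes inside mitochondria are encoded by separate nuclear genes. These genes were picked after the values were seen, and 3 of 9 fell and none rose by limma, where 18.9% of all tested genes fell and 10.4% rose. MTIF2, the mitochondrial initiation factor that brings in the initiator tRNA, read 19.7 and 15.9 TPM with periplocin and 49.9 and 53.1 TPM with DMSO (log2 fold change -1.49, limma adjusted p = 0.00389). Both periplocin libraries lay far below both DMSO libraries. TSFM, which exchanges the nucleotide on the mitochondrial elongation factor Tu, read 54.8 and 59.4 TPM with periplocin and 92.5 and 88.6 TPM with DMSO (-0.66, limma adjusted p = 0.00726). MTRF1, of the mitochondrial release factor family, read 7.51 and 11.3 TPM with periplocin and 18.4 and 19.6 TPM with DMSO (-0.97, limma adjusted p = 0.0220). All 3 calls held with size factors, and that of MTRF1 was lost without periplocin replicate 1 (limma adjusted p = 0.0715) and with no filter on low values (0.0842). TUFM, the elongation factor Tu itself, stood at 245 and 239.7 TPM with periplocin and 263 and 241 TPM with DMSO and did not pass (-0.05, limma adjusted p = 0.632). MTIF3, GFM1, GFM2, MTRF1L and MRRF did not pass either.

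EIF5A2, a relative of EIF5A likewise picked after its value was seen, read 19.9 and 16.3 TPM with periplocin and 10.2 and 10.1 TPM with DMSO. It rose by 0.77 on the log2 scale (limma adjusted p = 0.0216, and 0.0141 with size factors). The call was lost when any 1 library was left out (adjusted p 0.0531 to 0.135) and with no filter on low values (0.0662). Of other relatives, PABPC1L (-0.43) and EIF4A3 (-0.04) did not pass, and GSPT2 was listed at 0.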
